A study of Drosophila melanogaster with 2 samples.

Results

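The genes described here encode the proteins of the mitochondrial ribosome, and the data are sites of Slbo-eGFP on chromatin, measured by chromatin immunoprecipitation with sequencing (ChIP-seq) in Drosophila melanogaster. They were chosen by symbol, as the protein-coding genes of the Ensembl BDGP6 annotation whose symbol begins with mRpL or mRpS followed by a digit, and 73 of the 13945 protein-coding genes on the 6 main chromosome arms met this rule, 47 of the large and 26 of the small subunit. A gene was counted as having a peak when a peak summit, the position of the highest signal in a peak, lay within 1 kb of one of its transcription start sites. The set was put together with earlier results of these data known, so its counts are given as a description beside the same counts over all protein-coding genes, with no test. Both samples were whole embryos, 8 to 24 h old, of the strain slbo-GFP, which carries a transgene expressing Slbo fused to eGFP, and the labels call them biological replicates 1 and 2. Per the labels, chromatin was sonicated and the size range was 200 to 800, with no unit stated. The sample descriptions name an antibody against GFP whereas the antibody label names slbo itself, and the possible control experiment that the labels mention was not used here. All cell types of the embryo are pooled in such a sample, and a peak does not show which of them carried it.

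Slbo (slow border cells) is a fly protein of the C/EBP family of basic leucine zipper transcription factors. Mitochondrial ribosomes translate the few messenger RNAs of the mitochondrial genome, which encode core subunits of the respiratory chain and of ATP synthase. Their RNA comes from mitochondrial DNA, whereas all of their proteins are encoded by nuclear genes, translated in the cytosol and imported. Some of these proteins have counterparts in bacterial ribosomes and share their numbers, and the others belong to mitochondrial ribosomes alone and carry higher numbers.

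The sequences under the peaks are shown first, for summits with and without the C/EBP consensus. The first 4 windows hold the summit base with 50 bases to each side, at mRpS10, mRpS23, mRpL23 and mRpL20, shown because their signals were among the highest of the set. The next 2 windows, at mRpS22 and mRpL2, are shown because they did hold the C/EBP consensus within 50 bp of the summit, which is in capitals, and the last, at mRpL12, because it held the DRE core, also in capitals. Sequence is from the RefSeq copy of the dm6 genome, 5′ to 3′ on the plus strand.
mRpS10 summit, 3R:15229486-15229586, plus strand: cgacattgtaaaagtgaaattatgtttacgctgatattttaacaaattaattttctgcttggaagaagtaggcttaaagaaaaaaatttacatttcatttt
mRpS23 summit, 2L:13835407-13835507, plus strand: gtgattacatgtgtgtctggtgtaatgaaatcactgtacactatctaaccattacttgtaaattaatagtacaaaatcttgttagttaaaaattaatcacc
mRpL23 summit, 3L:2373548-2373648, plus strand: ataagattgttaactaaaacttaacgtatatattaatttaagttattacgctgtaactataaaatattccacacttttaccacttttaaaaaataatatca
mRpL20 summit, 3L:13018084-13018184, plus strand: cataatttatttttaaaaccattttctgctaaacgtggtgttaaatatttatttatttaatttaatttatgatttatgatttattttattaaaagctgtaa
mRpS22 summit, 3R:27916830-27916930, plus strand: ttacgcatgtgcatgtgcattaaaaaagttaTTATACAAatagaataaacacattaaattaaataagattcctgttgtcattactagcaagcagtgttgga
mRpL2 summit, 3L:11120144-11120244, plus strand: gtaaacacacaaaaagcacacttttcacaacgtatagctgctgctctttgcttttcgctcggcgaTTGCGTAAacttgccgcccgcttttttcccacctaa
mRpL12 summit, 3L:8956748-8956848, plus strand: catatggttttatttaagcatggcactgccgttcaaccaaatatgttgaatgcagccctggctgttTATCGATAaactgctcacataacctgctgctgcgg

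A further sequence was shared by the start sites of these genes whether or not they had a peak. The E-box CAGCTG, a palindromic word bound by some basic helix-loop-helix proteins, lay close to the start site in many of them. The following lines give 60 bases around the start site on the strand of the gene, with the E-box in capitals and the start site at base 31. The first 4 genes had a peak and the last 2 had none in the series-level list.
mRpS2 start site, 2L:4850390-4850449, minus strand: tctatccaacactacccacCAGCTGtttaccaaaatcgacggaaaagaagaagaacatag
mRpL24 start site, 2L:4945332-4945391, minus strand: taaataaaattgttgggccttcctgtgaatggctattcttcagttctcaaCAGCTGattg
mRpS6 start site, 3L:4364520-4364579, plus strand: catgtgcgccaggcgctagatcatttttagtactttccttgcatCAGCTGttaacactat
mRpS18B start site, 2L:20097224-20097283, minus strand: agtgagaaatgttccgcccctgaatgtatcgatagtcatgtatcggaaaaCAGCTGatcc
mRpL45 start site, 3R:22618462-22618521, plus strand: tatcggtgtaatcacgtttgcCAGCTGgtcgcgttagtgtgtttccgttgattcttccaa
mRpL46 start site, 3L:1777409-1777468, plus strand: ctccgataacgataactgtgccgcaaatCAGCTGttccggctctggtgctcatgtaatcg

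Across the set, 51 of the 73 genes (69.9%, 95% Wilson interval 58.6 to 79.2) had a summit within 1 kb in the series-level list, against 36.4% of all protein-coding genes. In the list of replicate 1 the count was 50 of 73 (68.5%), where 34.1% of all protein-coding genes had one. In the list of replicate 2 it was 34 of 73 (46.6%), with 26.7% of all protein-coding genes. The mean over the replicates was 57.5% ± 15.5 (SD, n = 2), so the difference between the replicates was large, and in each of them the share in the set was above that over all genes. The conservative list of both replicates held summits at 46 of the 73 (63.0%), and 34.8% of all protein-coding genes had one there. The interval treats the 73 genes as independent draws, although they are the whole set by this rule and come from the same 2 samples. It does not cover the difference between the replicates, and the share in replicate 2 lay below it. It is not a test against the share over all genes.

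**Figure D1:**
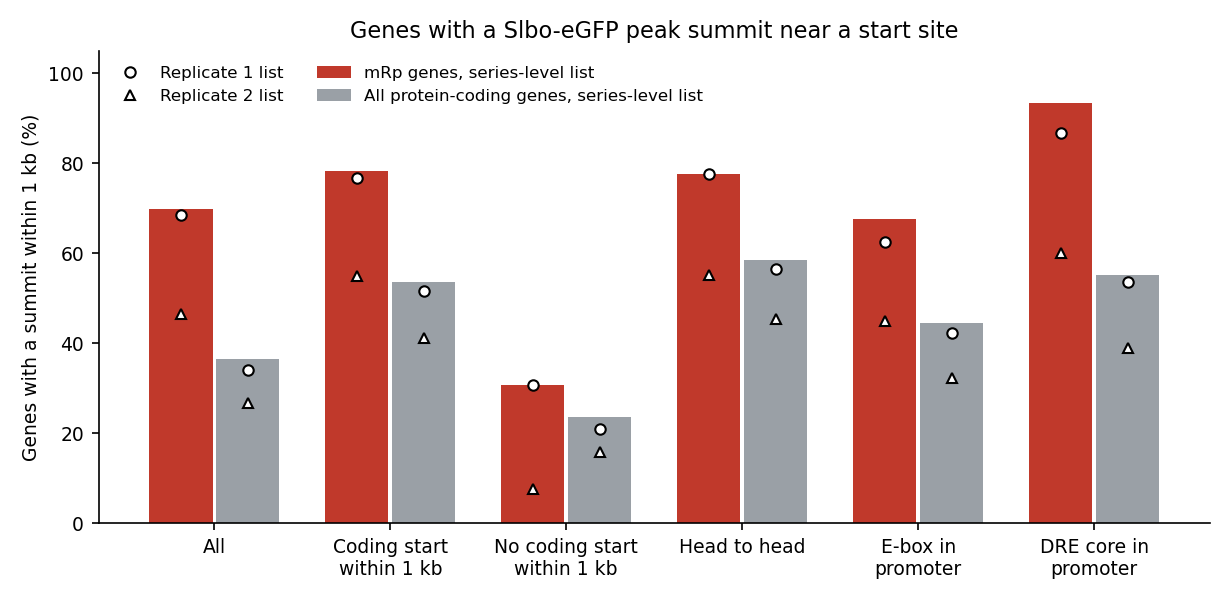
Percentage of genes near whose start site (within 1 kb) a summit was listed, for the mitochondrial ribosomal protein (mRp) genes in red and all protein-coding genes in grey. Bars give the series-level list, circles replicate 1 and triangles replicate 2. The first pair stands at 69.9% and 36.4%, and genes with no other coding start within 1 kb stand lowest, at 30.8% and 23.6%.

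The series-level list, made from both replicates, held 8786 peaks, 8714 of them on the 6 arms, and the lists of replicates 1 and 2 held 7151 and 5445. Its peaks carry a score, which the authors based on reproducibility between replicates (IDR) and whose lowest value was 830, and a signal value whose scaling for depth is not stated. Signals were therefore ranked within a list and set side by side between lists. The lists hold no read counts, so the depth of each sample is unknown.

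The share of genes with a peak was similar between the subunits in the series-level list and differed more in replicate 2. Of the 47 large-subunit genes 32 (68.1%) had a summit in the series-level list, and of the 26 small-subunit genes 19 (73.1%). In replicate 1 the shares were 66.0% and 73.1%, and in replicate 2 they were 40.4% (19 of 47) and 57.7% (15 of 26). The medians of the strongest signal per gene were 140 and 205. In the series-level list genes differed more by numbering. Of the 42 genes numbered as in bacteria (up to L36 and S21) 35 (83.3%) had a summit, whereas 16 of the 31 with higher numbers (51.6%) did. The shares were 78.6% and 54.8% in replicate 1. In replicate 2 they were 54.8% and 35.5%, a difference near that between the subunits there. By arm, the counts were 10 of 12 on 2L, 10 of 12 on 2R, 11 of 17 on 3L, 15 of 21 on 3R and 5 of 11 on X. The share on X, 45.5%, stood beside 38.0% of all protein-coding genes of that arm, and the share on 2L, 83.3%, beside 33.8%.

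The set held some of the strongest peaks of the whole list. Of the 51 genes, 4 had a peak among the 25 with the highest signal, as did 37 of all 13945 protein-coding genes and none of the 92 cytosolic ribosomal protein genes, and 8 of the 57 distinct peaks at these genes (14.0%) were in the top decile, where 13.5% of all 4679 peaks near a coding start were. The median signal percentile, the share of peaks in the list with a lower signal, was 62.0 for the 57 peaks and 58.8 for the 4679. Per gene, the median percentile of the strongest peak was 64.8 for the 51 genes and 68.3 for all protein-coding genes with a summit. By these medians and the top-decile share, which include the 4 highest peaks, the ranks in the set were near those of other promoter peaks.

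mRpL41 (FBgn0034001), whose product is a mitochondria-specific protein of the large subunit, had the highest signal of the set. Its signal was 2306 in replicate 1 and 1931 in replicate 2. In the series-level list it was 4161, rank 4, with the summit 135 bp from its start, between it and CG8079. The next peaks, nearly equal in height to one another, were at genes of both subunits.

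mRpS10, whose bacterial counterpart lies in the head of the small subunit, had a signal of 1617 in replicate 1 and 1396 in replicate 2. Its series-level signal was 2996, rank 12, and the summit lay 129 bp from its start and 128 bp from that of Art3, an arginine methyltransferase gene on the other strand. mRpS23, which encodes a mitochondria-specific protein of the small subunit, had signals of 1743 and 1256 in replicates 1 and 2. The series-level signal of this peak was 2983, rank 13, and its summit was 385 bp from the mRpS23 start but 107 bp from that of CenG1A, which encodes an Arf GTPase-activating protein. Both peaks were thus at least as close to a neighbour as to the ribosomal protein gene. mRpL23, whose product lines the end of the exit tunnel in bacteria, had signals of 1653 and 1265, and a series-level signal of 2915, rank 16. Its summit was in its own 5′ UTR, 80 bp downstream of the start and 130 bp from the start of CG9004.

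The next 4 genes formed a second step. mRpL20, the counterpart of a protein needed early in assembly of the bacterial large subunit, had signals of 644 and 531 in replicates 1 and 2 and a series-level signal of 1173, rank 121. mRpS2 had signals of 673 and 419 and a series-level signal of 1088, rank 146. At both genes the nearest start was that of the divergent neighbour, Icmt at 132 bp for mRpL20 and Mon1, part of a regulator of Rab7, at 54 bp for mRpS2. mRpL24, another exit tunnel protein, had signals of 496 and 371 and a series-level signal of 856, rank 248, with betaggt-I, a prenyltransferase subunit gene, the nearest. mRpS6, the bacterial counterpart of which pairs with S18 on the platform of the small subunit, had signals of 410 and 275 and a series-level signal of 670, rank 380. Its own start was the nearest, at 78 bp. These 8 genes were in both replicate lists. Each had the higher signal in replicate 1, but how signals scale between the 2 lists is not known. By rank within each list, mRpL41 (4 and 3 in replicates 1 and 2), mRpS10 (15 and 11) and mRpL20 (129 and 126) stood higher in replicate 2. The others stood higher in replicate 1.

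A gap separated these from the other genes of the set. mRpL34 had signals of 226 and 147 in replicates 1 and 2 and a series-level signal of 365, at a summit next to Dg, the dystroglycan gene. mRpL53 reached a series-level signal of 351 and 207 in replicate 1 but had no peak in the list of replicate 2. mRpL4, whose bacterial counterpart narrows the exit tunnel, had signals of 236 and 102 and a series-level signal of 334. These genes thus differed in how far the replicates were apart. mRpL37, a mitochondria-specific protein of the large subunit, had signals of 180 and 149 and a series-level signal of 330, at a summit 89 bp from its start.

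A further 23 genes were in the series-level list and in both replicate lists. They were mRpL2, mRpL9, mRpL11, mRpL13, mRpL16, mRpL17, mRpL18, mRpL21, mRpL33, mRpL35, mRpL39, mRpL43, mRpS7, mRpS11, mRpS16, mRpS18B, mRpS21, mRpS22, mRpS24, mRpS25, mRpS26, mRpS29 and mRpS31. Among them are mRpL11, the counterpart of a protein that contacts translation factors in bacteria, and mRpS29, which is known in mammals as DAP3. Their series-level signals ran from 103 at mRpL2 to 317 at mRpS18B. In replicate 1 they ran from 43.6 at mRpL2 to 210 at mRpS18B, and in replicate 2 from 46.9 at mRpL17 to 121 at mRpS7. mRpL2, which in bacteria is part of the peptidyl transferase region, had the higher signal in replicate 2, 56.5 against 43.6. None of the other 33 genes found in all 3 lists did. Its percentile within the list was also higher there, 26.0 against 7.37. By percentile it was not the only such gene, as mRpL43 had 36.9 in replicate 2 and 34.0 in replicate 1.

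Over the 34 genes present in all 3 lists, the rank correlation of the signals between replicates was 0.873 (Spearman), beside 0.907 over the 3525 protein-coding genes with the same property. The points come from the same 2 libraries, and the values are a description. The median percentile of the 34 was 68.1 in replicate 1 and 59.4 in replicate 2, and 29 of them had the higher percentile in replicate 1. The same was true of 2947 of the 3525 genes overall. Genes with a peak in the series-level list and both replicates had a median series-level signal of 227, those lacking one in replicate 2 had 107, and those lacking one in both had 85.3.

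**Figure D2:**
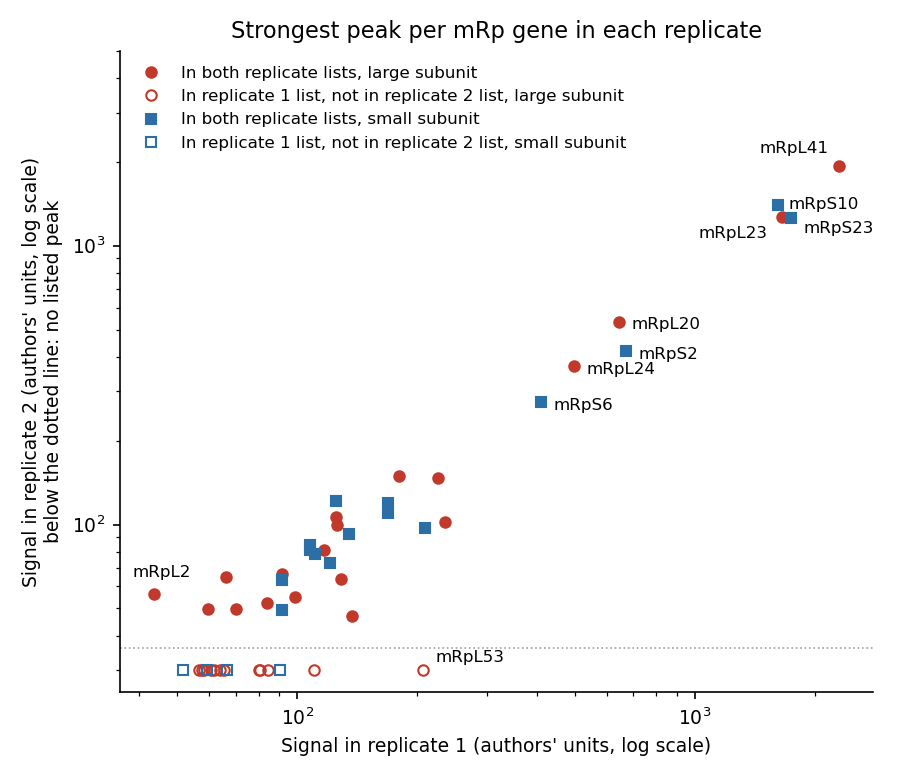
Signal of the strongest peak within 1 kb of each mRp gene in the list of replicate 1 (horizontal) and replicate 2 (vertical), both in the authors' units on log scales. Filled points are the 34 genes in both lists, and open points below the dotted line the 16 genes that the list of replicate 2 lacks, of which mRpL53 has the highest signal.

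Another 13 genes had a peak in the series-level list and in replicate 1 but none in the list of replicate 2. These were mRpL1, mRpL10, mRpL19, mRpL22, mRpL27, mRpL28, mRpL32, mRpL53, mRpL54, mRpL55, mRpS17, mRpS18A and mRpS30. mRpL1 and mRpL10 are counterparts of proteins of the bacterial ribosomal stalks, and in mammals the proteins named mRpS18A and mRpS30 sit in the large subunit. Their signals in replicate 1 ran from 57.7 at mRpL19 to 207 at mRpL53. In the ranked list of replicate 2, which also holds peaks below the threshold, 12 of the 13 had a summit within 1 kb, with scores from 48 at mRpL19 to 783 at mRpL1. The exception was mRpL53, which had none there despite the tenth highest signal of the set.

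The series-level list had a peak at 4 genes that neither replicate list had. mRpL12, the counterpart of the bacterial stalk protein that recruits factors, had a series-level signal of 81.7, and in the ranked lists 35.0 in replicate 1 and 44.5 in replicate 2. The values of mRpL36 were 104, 55.7 and 42.3 in the same order. Those of mRpL42 were 88.9, 50.8 and 37.0. mRpS18C had 77.7, 47.6 and 34.2. In each of the 4, as at mRpL41, the series-level signal was close to the sum of the replicate signals.

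The reverse held for 3 genes, which had a peak in the list of replicate 1 alone. mRpL44, which encodes a protein with a ribonuclease III fold, had a signal of 56.7 in replicate 1 and ranked-list values of 19.6 in replicate 2 and 71.8 in the series-level list. mRpL50 had 58.3, 26.2 and 62.7. mRpS5, the counterpart of a protein at the entry of the messenger RNA channel in bacteria, had 51.6, 28.1 and 84.3. Its series-level score was 829, just under the lowest listed score of 830, and its nearest listed summit lay 1228703 bp away on 3L.

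The remaining 19 genes had no listed summit within 1 kb in any of the 3 lists, and 18 of them were in the ranked series-level list with low signal only. These 18 were mRpL3, mRpL14, mRpL15, mRpL30, mRpL38, mRpL40, mRpL45, mRpL46, mRpL48, mRpL49, mRpL51, mRpL52, mRpS9, mRpS14, mRpS28, mRpS33, mRpS34 and mRpS35. They include mRpL3, whose bacterial counterpart reaches towards the peptidyl transferase centre. Their best ranked signals ran from 9.89 at mRpL30 to 61.2 at mRpL48, and their scores from 38 to 646. The median signal of all 126102 ranked peaks on the arms was 24.9, and a ranked peak near a start site says little at that density.

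mRpL47 was the exception. Its ranked peak, with the summit 86 bp from the start, had a signal of 418 and a score of 1000 in the series-level ranked list. In the ranked lists of the replicates it had 285 and 134, also with scores of 1000, yet no thresholded list held it. It was 1 of 224 peaks on the arms that reached a score of 830 in the ranked list and were left out of the thresholded one, of 8938 that reached it, and no other member had such a peak. With it counted, 52 of the 73 genes would have a summit.

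The values on either side of the limits were as follows. Of genes counted, the farthest summit was 653 bp from the start, at mRpL2, and of genes not counted the nearest was at 1262 bp, at mRpS35. Of genes counted, the lowest series-level score was 938, at mRpL54.

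Nearly all of these peaks lay at the start of another gene as well. Of the 57 peaks, 53 (93.0%) had the summit also within 1 kb of the start of another protein-coding gene, against 38.5% of the 4679 peaks near any coding start and 71.1% of the 90 peaks at cytosolic ribosomal protein genes. Starts on both strands were present at 51 (89.5%), against 35.3% of the 4679. The median distance from the summit to the nearest coding start was 78 bp, against 125 bp. By annotation, 40 summits were intergenic, 13 in a 5′ UTR, 2 in a 3′ UTR and 2 in an intron.

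Seen from the genes, 46 of the 51 had the strongest summit upstream of their own start, at a median distance of 112 bp, and at 37 it lay between their start and a divergent one. The neighbours had varied roles. Some encode other mitochondrial proteins, such as Mitofilin, which shapes cristae, next to mRpL35 (series-level signal 129), ATPsynD, a subunit of ATP synthase, next to mRpL55 (96.3), HtrA2, a mitochondrial protease, next to mRpL11 (229), and Taz, which remodels cardiolipin, next to mRpL18 (226). Others do not, such as Cdk1, the mitotic kinase, next to mRpS7 (253), Apc2 next to mRpS24 (288) and AGO1, the Argonaute of the microRNA pathway, next to mRpL53. Where each peak was given to its nearest coding start alone, 27 of the 73 genes (37.0%) had a peak, against 27.5% of all protein-coding genes, so the difference between the set and all genes was much smaller than with shared peaks. Which of the genes at a shared start region a peak concerns cannot be told apart in these lists.

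**Figure D3:**
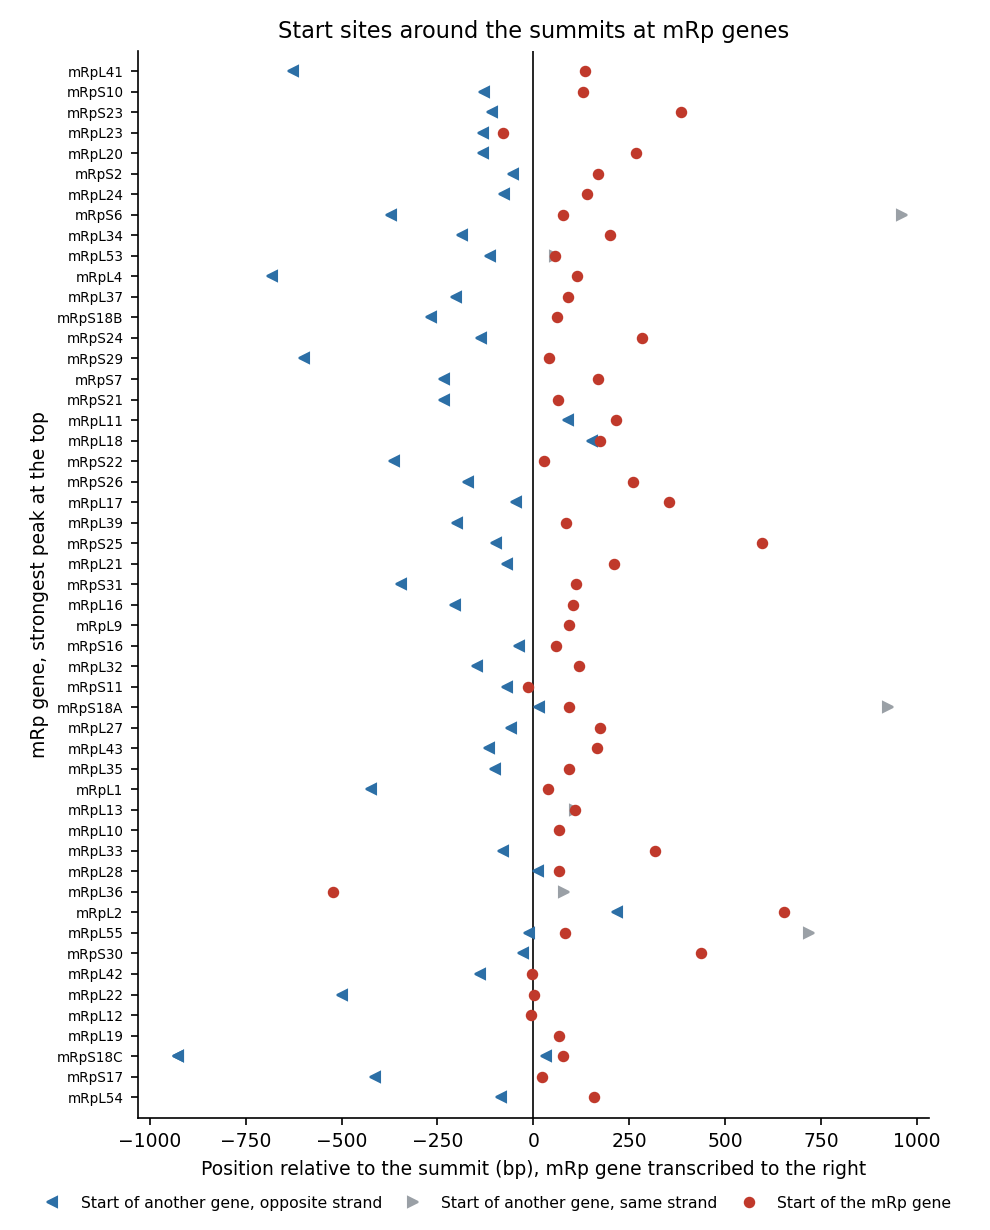
Positions of start sites around the strongest summit of the 51 mRp genes with a peak, in bp from the summit, with the mRp gene transcribed to the right and the strongest peak at the top. Red points are the mRp start, blue triangles starts of other protein-coding genes on the opposite strand and grey triangles those on the same strand. The red points lie to the right of the summit in 46 of 51 genes.

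The arrangement of the genes went with having a peak. Another coding start lay within 1 kb of 60 of the 73 genes (82.2%), against 42.9% of all protein-coding genes, and 58 (79.5%) were head to head with a divergent gene, against 36.2%. These genes are also short, with a median length of 909 bp against 2166 bp. Of the 60 with such a neighbour 47 (78.3%) had a summit, and of all protein-coding genes with one 53.5% did. Of the 13 without a neighbour 4 (30.8%) had a summit, namely mRpL9, mRpL10, mRpL12 and mRpL19, and of all such genes 23.6% did. Of head-to-head genes 77.6% in the set and 58.4% overall had a summit. The head-to-head shares were 77.6% against 56.6% in replicate 1 and 55.2% against 45.3% in replicate 2. For genes without a neighbour they were 30.8% against 21% in replicate 1 and 7.69% against 15.8% in replicate 2, where the set had the lower share. The difference was thus smaller among genes arranged alike than over all genes, but not among short genes with a neighbour. Of genes shorter than 2 kb with a neighbour, 78.0% in the set and 41.9% overall had a summit. In replicate 2 these shares were 55.9% and 31.4%. Of genes shorter than 2 kb with none, 36.4% in the set (4 of 11) and 12.3% overall had a summit. In replicate 2 the shares of these genes were close, 9.09% and 7.48%. Of all genes shorter than 2 kb, 71.4% in the set and 24.9% overall had a summit, with 48.6% and 17.6% in replicate 2.

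The 13 head-to-head genes without a summit had closer partners, with a median gap of 50 bp between the starts, than the 45 with a summit, at 291 bp. Over all head-to-head genes the medians were 286 bp without and 301 bp with a summit. Gaps under 300 bp were found at 9 of the 13 (69.2%), at 24 of the 45 with a summit (53.3%) and at 50.6% of all head-to-head genes. Examples among the 13 are mRpS14 with Naa15-16 (21 bp), mRpL46 with CG2021 (28 bp), mRpL51 with Uba4 (31 bp), mRpL15 with CtIP (41 bp) and mRpL48 with CG17660 (41 bp). A close partner was also found at one of the strongest peaks, that of mRpL23, where the gap was 24 bp.

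Motifs were searched on both strands, within 50 bp of each summit and in promoters of 300 bases, from 250 before to 50 after the start. The words were the C/EBP consensus (16 words of 8 bases, made of TT, a purine, a pyrimidine, a purine, a pyrimidine and AA), the NRG element of mitochondrial genes (4 of the same 16 words, those with TTA at the start and TAA at the end), the DRE core TATCGATA, the BEAF-32 core CGATA that lies within it, the promoter motif 1 core GGTCACAC, the E-box CAGCTG, the cyclic AMP element TGACGTCA and GAGAG. Each count below is a description, and a match is not a measured binding site.

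The C/EBP consensus was at 5 of the 57 summits (8.77%), against 4.62% of the 4679 summits near coding starts. The 5 were those of mRpL53, mRpL43, mRpL2, mRpL37 and mRpS22. Their signals ran from 103 at mRpL2 to 351 at mRpL53, and none was in the top decile. In the promoters the consensus was at 26 of 73 (35.6%), against 14.4% of all. Of these 26 genes 20 (76.9%) had a summit, and of the other 47 genes 31 (66.0%). Among all protein-coding genes the share with a summit was 36.6% with and 36.4% without the consensus in the promoter. Promoters of the set were richer in A and T, 64.2% on average against 60.7%, and the part of base composition in these shares was not tested.

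None of the 8 summits in the top decile of signal held any of the 8 words within 50 bp. Of the 632 top-decile summits near coding starts, 5.70% held the C/EBP consensus, 2.06% the DRE core, 3.48% the E-box, 7.59% GAGAG and 15.8% CGATA, so 0 of 8 is not far from these low shares. Within 100 bp, 3 of the 8 (37.5%) held CGATA, against 30.1% of the 632. The E-box was at 3 of the 8 (37.5%), against 10.6%, and GAGAG at 1 (12.5%), against 19.8%. The 8 windows were rich in A and T, 75.6% on average, against 62.4% at the other 49 summits of the set and 67.7% at the 632. The windows of mRpS10, mRpS23, mRpL23 and mRpL20 printed above are 4 of the 8.

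The DRE core, bound by the factor Dref, was at 3 of the 57 summits (5.26%), those of mRpL12, mRpL19 and mRpS29, against 4.27% of the 4679. Within 100 bp it was at 11 of the 57 (19.3%), against 7.35%. In promoters it was at 15 of the 73 (20.5%), against 8.94% of all. Of the 15 genes with it 14 (93.3%) had a summit, all but mRpL3, beside 55.2% of all protein-coding genes with it. Of the 58 without it 37 (63.8%) did, beside 34.6% of all protein-coding genes without it. The share in the set was thus above that over all genes with the DRE core and also without it. In replicate 2 both shares in the set were lower, and each was still above that over all genes. The NRG element, the C/EBP words described for nuclear genes of mitochondrial function, was at none of the 57 summits, against 1.6% of the 4679. None of 57 is not far from so low a share. In promoters it was in 6 of the 73 (8.22%), against 5.13% of all promoters. The cyclic AMP element was found in none of the 73 promoters, and in 0.423% of all. GAGAG was in 12 of the 73 (16.4%), against 30.2%, and the motif 1 core in 8 (11.0%), against 7.54%. CGATA was in 42 (57.5%), against 46.9%. Of these 42 genes 29 (69.0%) had a summit, and of the 31 without CGATA 22 (71.0%). The shares were 59.5% and 80.6% in replicate 1 and 38.1% and 58.1% in replicate 2. Over all protein-coding genes, 42.1% with CGATA and 31.4% without it had a summit in the series-level list.

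Of the 8 words, the E-box had the highest share relative to all genes, and it lay nearer to the start sites than to the summits. It was in 40 of the 73 promoters (54.8%), against 17.9% of all protein-coding genes and 9.78% of cytosolic ribosomal protein genes. Its centre lay within 50 bp of the start in 34 of the 73 (46.6%), against 9.55% of all. Among the 41 other genes of mitochondrial gene expression described below, 15 (36.6%) had it there. In the 30 bp from the start on, 20 of the 73 (27.4%) held it, against 3.63%. Within 50 bp of the summits it was found in 3 of 57 windows (5.26%), against 5.71%, and within 100 bp in 16 (28.1%), against 12.4%. Among head-to-head genes the E-box was in 31 of 58 promoters of the set (53.4%), against 22.1% of all such genes. Among genes not head to head it was in 9 of 15, against 15.5%. The set was thus above all genes in both groups, by more in the second, where it had few genes. Both subunits had it, 27 of 47 large-subunit genes (57.4%) and 13 of 26 small-subunit genes.

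The E-box was about as frequent in genes with a peak as in genes without. It was in the promoters of 27 of the 51 genes with a summit (52.9%) and of 13 of the 22 without (59.1%). Of the 40 genes with it 27 (67.5%) had a summit, and of the 33 without it 24 (72.7%). Over all protein-coding genes the shares were 44.6% and 34.6%. In the 27 genes with both, the E-box nearest to the start was a median of 129 bp from the summit, from 36 bp at mRpS18C to 666 bp at mRpL2, and in 2 of the 27 it was within 50 bp.

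**Figure D4:**
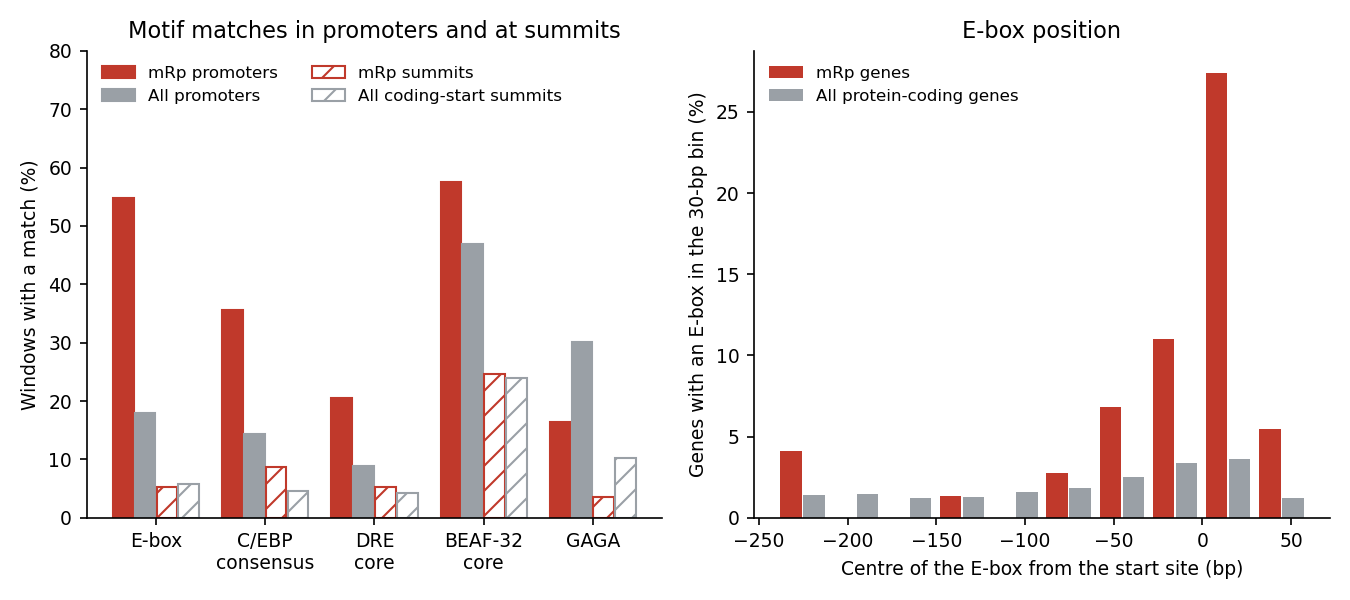
Left, share of windows with a match (%) for 5 of the words, in promoters of 300 bases (filled) and within 50 bp of summits (hatched), for the mRp set in red and all coding genes or coding-start summits in grey. Right, share of genes with an E-box whose centre falls in each bin of 30 bp around the start site, where the highest bin holds 27.4% of the mRp genes and 3.63% of all, and the last bin is cut short by the end of the promoter window.

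Other genes of mitochondrial gene expression, 41 genes listed by symbol, had a summit in 22 cases (53.7%), with 21 in replicate 1 and 14 in replicate 2. The strongest were PNPase, a polynucleotide phosphorylase of mitochondrial RNA (1504 and 1312 in replicates 1 and 2, series-level signal 2800), and SLIRP2, an RNA-binding protein (828 and 676, series-level 1509). Of the 7 translation factor genes 5 had a summit, but with low signal, a median of 91.4. The median was 167 for the 51 mitochondrial ribosomal protein genes and 183 for all protein-coding genes with a summit. Summits were also at 5 of 7 RNA handling genes, 3 of 7 transcription genes, 2 of 4 genes of mitochondrial DNA upkeep, 6 of 15 aminoacyl-tRNA synthetases and OXA1L, which inserts the translated proteins into the membrane. The E-box was in 16 of the 41 promoters (39.0%), and in 15 (36.6%) its centre was within 50 bp of the start.

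The cytosolic ribosomal protein genes, 92 by symbol, resembled the set in their share with a summit, 70 (76.1%), with 72 in replicate 1 and 66 in replicate 2. They lost fewer genes from replicate 1 to replicate 2, and the median series-level signal of their genes was 234. Their promoters differed in motif content, with the DRE core in 30.4% and the E-box in 9.78%, where the mitochondrial set had 20.5% and 54.8%.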

How the data were processed

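ChIP-seq peak lists of 2 biological replicates were used. Per the labels, replicate lists and lists of both replicates (series-level and conservative) exist. Neither aligner nor peak caller is given in the sources used here. In the deposited lists the signal column is the peak caller's value, and the score column is, per the file headers and layout, derived from the irreproducible discovery rate. No read counts are given, so depth is unknown. Summits (start plus offset) were assigned to genes within 1 kb of any start site of Ensembl release 115, on the 6 arms, and sequence was the RefSeq copy of dm6, with Python 3.11.15, pandas 2.3.3, numpy 2.4.6, SciPy 1.17.1 and matplotlib 3.10.9. The step was checked on simulated data. The genes, lists and motifs were chosen with earlier results of these data known, so no test was made. Every gene of the set is named, in full the 12 strongest, those found in some lists and those found in none. The gaps, base compositions, E-box positions, words ranked and the sequences with a motif were chosen after values were seen. The symbols mEFG2 and mtRF1 matched no gene. Alternatives were other distances, lists, start sites, peak intervals and windows. One neighbouring gene is not reported here.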

Additional observations from a re-analysis of the deposited data

How the results depend on the processing

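The count of 51 genes with a summit was between 34 and 50 in the lists of single replicates, 48 at 500 bp, 41 at 250 bp, 46 in the conservative list, 52 with ranked peaks of a score of 830 or more, and 51 with the 5′ end of the gene alone. It was 32 when the peak interval had to overlap a start and 27 with the nearest coding start alone. In the same 2 settings the 32 large-subunit genes became 20 and 18, and the 19 small-subunit genes 12 and 9. Single replicates gave 19 to 31 large-subunit genes. Over all protein-coding genes, 5080 by the main rule, the overlap rule gave 2727 (19.6%, against 43.8% of the set) and the nearest start 3828 (27.5%, against 37.0%). The 53 shared peaks became 28 at 250 bp and 15 with the overlap rule. Under these 2 rules fewer genes had a peak (41 and 32), and the share of peaks that were shared is not given here. In replicate 1, 52 of 56 peaks were shared (92.9%), against 41.5% of all peaks near a coding start. In replicate 2, 35 of 37 were (94.6%), against 41.8%. The median percentile of 62.0 was 64.8 at 500 bp, 63.6 at 250 bp and 53.4 to 55.4 in single replicates, against a spread of 1.41 (SD) between these. The 3 summits with the DRE core became 1 within 25 bp and 11 within 100 bp (19.3%, against 7.35% of all coding-start summits); the cause of these changes was not tested. Of 62 alternative values 45 were within 1.5 times the reported count or, for the percentile, within that SD. No paired analysis was possible because there is 1 group. With 2 replicates, no control used here and no counts, the lists limit precision to the presence and rank of a peak, and peaks shared with a neighbour cannot be given to either gene.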

Other observations

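The symbols tko and bonsai also name mitochondrial ribosomal protein genes but do not begin with mRp, so they were outside the set. tko had a summit with a series-level signal of 120, and bonsai had none. With both added, 52 genes had a summit and the median percentile of the peaks was 61.1.

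Of all 2080 words of 6 bases, counted once with their reverse complement, CAGCTG had the largest difference between promoters of the set and all promoters, 36.9 percentage points. The next were ACAGCT at 31.0 points and AACAGC at 28.8, which overlap the same sites, and AGCTGA at 25.9. TATCGA, part of the DRE core, stood 22.3 points higher in the set, at 49.3% of its promoters. Among the most depleted were AAAGTG, in 12.3% against 25.1%, and GAGAGC, in 2.74% against 14.1%. These words were looked at after the counts for the E-box were known.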
